A study of Mus musculus with 8 samples.

Results

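The 33 genes described here encode the glucose transporters, the enzymes and the lactate carriers of glycolysis, together with the hypoxia-inducible factor HIF-1α and genes that it is known to induce. They form a list of gene names set by function, and were looked up in a table of 24339 genes measured by RNA sequencing in mouse peritoneal macrophages, which patrol the abdominal cavity and take up microbes and debris. All 33 were listed, and all 33 averaged 1 FPKM or more and so were among the 10447 genes tested. FPKM corrects fragment counts for the length of the transcript and the size of the library, so levels of different genes can be set side by side.

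The donors were C57BL/6 mice, either wild type or α7nAChR-/-. The latter lack the α7 subunit of nicotinic acetylcholine receptors, whose gene is Chrna7. In all 8 groups the peritoneal cells were plated, washed and used the next day. They received nicotine, an agonist of that receptor, at 10 µM or vehicle for 15 min, followed by lipopolysaccharide (LPS), a bacterial cell wall component, at 100 ng/ml or vehicle for 4 h. Crossing genotype, nicotine and LPS gave 8 groups with 1 library in each and no replicates. Each treatment was therefore compared over 2 libraries per arm (1 of each genotype), and genotype over 4 libraries per arm. Age and sex of the mice are not in the labels, nor is it stated if cells of a genotype were prepared once or several times. Genotype and preparation therefore cannot be told apart, and the p-values reflect no more than the spread among these 8 libraries.

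Glycolysis splits glucose into pyruvate. Hexokinase traps glucose in the cell, phosphofructokinase commits it to the pathway, the lower enzymes recover ATP, and lactate dehydrogenase and the monocarboxylate transporters dispose of the product as lactate. HIF-1α is hydroxylated by the EGLN prolyl hydroxylases and degraded when oxygen is present, and when stable it binds DNA with ARNT and induces most of these genes. Macrophages activated by LPS are known to take up more glucose, to release lactate and to accumulate HIF-1α at normal oxygen.

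Summed FPKM ranged from 413052 to 854016 per library and was highest in the 2 libraries with LPS alone. Macrophage markers were present in every library, with sums over 10 genes of 19450 to 34829 FPKM, most of it Lyz2. Vsig4, a marker of resident macrophages, was at 64.6 to 165 FPKM in wild type and 2.33 to 7.93 FPKM in α7nAChR-/- libraries, and the marker Gata6 was at 2.30 to 15.7 and 0.814 to 4.84 FPKM. Timd4, of the same list of 10, went the other way, at 20.3 to 108 FPKM in wild type and 78.3 to 222 FPKM in α7nAChR-/- libraries. By genotype, 1 of the 10 was higher and 2 were lower, against 4.76% and 2.88% of all genes. Chrna7 was listed at 0 in all 8 libraries and so does not check the genotype labels. Gapdh, the glycolytic enzyme between the members Tpi1 and Pgk1 in the pathway, was listed at only 1.34 to 8.90 FPKM. Its transcript matched 163 other annotated genes at 90% identity or more over at least 300 bases, and it was not counted among the members.

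RefSeq promoter sequences on the build GRCm38.p6, from 250 bases before to 50 bases after the transcript start, matched 31 of the 33 genes, with 41 promoters in all. They were searched on both strands for ACGTG and GCGTG, the core letters of the hypoxia response element. At least 1 core was found in 82.9% of the 41 promoters and in 43.8% of all 32851 promoters in that table, and ACGTG alone was in 58.5% and 19.6%. The letters CACGTG hold ACGTG on each strand and count as 2 matches. Windows of the same gene can overlap, as for Aldoa and Eno1, so a core can be counted more than once. The promoters compared were not matched for base content. These matches describe the letters in the window and are not evidence of binding. A set of 6 promoters is shown, with cores in capitals, because results below turn on these genes. Hk2, Pfkfb3 and Slc16a1 rose with nicotine alone, and Slc16a3, Pgk1 and Tpi1 were higher in the α7nAChR-/- libraries. The windows lie at chr6:82774405-82774704 on the minus strand for Hk2, chr2:11502041-11502340 on the minus strand for Pfkfb3, chr3:104638414-104638713 on the plus strand for Slc16a1, chr11:120948817-120949116 on the plus strand for Slc16a3, chrX:106186850-106187149 on the plus strand for Pgk1 and chr6:124814109-124814408 on the minus strand for Tpi1. The Pfkfb3 window is 1 of 2 listed for that gene, and the Tpi1 window holds no core.
Hk2: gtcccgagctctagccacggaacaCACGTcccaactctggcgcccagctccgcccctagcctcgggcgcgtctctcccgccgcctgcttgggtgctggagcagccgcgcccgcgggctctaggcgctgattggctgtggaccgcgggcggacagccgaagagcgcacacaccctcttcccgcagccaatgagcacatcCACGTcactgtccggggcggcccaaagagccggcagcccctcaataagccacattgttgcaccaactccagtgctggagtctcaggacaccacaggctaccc
Pfkfb3: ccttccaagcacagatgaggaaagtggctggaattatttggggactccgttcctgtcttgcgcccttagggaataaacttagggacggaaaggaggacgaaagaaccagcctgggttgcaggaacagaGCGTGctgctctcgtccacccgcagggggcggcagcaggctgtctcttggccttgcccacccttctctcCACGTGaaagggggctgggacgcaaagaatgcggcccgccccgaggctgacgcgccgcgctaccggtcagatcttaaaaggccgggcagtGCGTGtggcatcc
Slc16a1: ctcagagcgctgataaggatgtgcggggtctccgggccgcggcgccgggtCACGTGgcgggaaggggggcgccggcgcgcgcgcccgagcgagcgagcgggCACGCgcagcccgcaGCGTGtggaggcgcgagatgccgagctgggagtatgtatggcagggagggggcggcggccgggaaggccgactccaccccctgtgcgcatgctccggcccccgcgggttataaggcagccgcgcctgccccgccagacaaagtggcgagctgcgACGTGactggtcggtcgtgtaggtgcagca
Slc16a3: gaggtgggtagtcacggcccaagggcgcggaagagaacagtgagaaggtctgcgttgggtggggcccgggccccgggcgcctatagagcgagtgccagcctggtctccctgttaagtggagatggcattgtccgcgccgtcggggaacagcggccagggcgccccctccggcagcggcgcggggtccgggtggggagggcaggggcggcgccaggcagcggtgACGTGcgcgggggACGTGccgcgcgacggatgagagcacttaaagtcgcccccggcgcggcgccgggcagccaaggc
Pgk1: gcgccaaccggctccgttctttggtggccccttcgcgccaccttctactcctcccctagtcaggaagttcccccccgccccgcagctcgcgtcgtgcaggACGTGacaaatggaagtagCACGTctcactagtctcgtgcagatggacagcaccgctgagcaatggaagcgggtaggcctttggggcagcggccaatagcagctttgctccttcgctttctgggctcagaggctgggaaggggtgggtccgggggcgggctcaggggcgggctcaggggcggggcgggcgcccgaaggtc
Tpi1: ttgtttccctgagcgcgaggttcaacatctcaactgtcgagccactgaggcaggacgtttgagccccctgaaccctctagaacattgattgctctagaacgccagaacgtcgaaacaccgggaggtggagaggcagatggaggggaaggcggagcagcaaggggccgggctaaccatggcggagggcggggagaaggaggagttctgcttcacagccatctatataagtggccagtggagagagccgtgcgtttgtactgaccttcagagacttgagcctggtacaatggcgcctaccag

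LPS without nicotine raised 16 of the 33 genes and lowered 11, while 6 did not pass limma's test at an adjusted p of 0.05. Of all 10447 genes, 32.7% rose and 26.4% fell, 59.1% in all. The genes that rose most encode the vasoactive peptide adrenomedullin (Adm), the transporters Slc2a6 and Slc2a1, the hexokinase Hk2, the phosphofructokinase Pfkp and its activator Pfkfb3. Those that fell included the mitophagy genes Bnip3l and Bnip3, the pyruvate dehydrogenase kinase Pdk1, the prolyl hydroxylases Egln1 and Egln3 and the enzymes Tpi1, Pfkl, Gpi1 and Eno1. The median log2 change was 0.61 over the 33 genes and 0.08 over all genes, but the median of the 33 was -0.34 with quantile scaling, -0.33 with equal sums of FPKM and 0.30 without the α7nAChR-/- LPS library. The sign was the same in both genotypes for 30 of the 33. Rescaling every library to the same summed FPKM moved the median of all genes to -0.73 and left 7 of the genes higher, with 5 of the 16 turned in sign, and without the wild type vehicle library 9 were higher. In a bulk sample, fewer cells of a type and less RNA per cell cannot be told apart.

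Nicotine without LPS raised 16 of the 33 genes and lowered 3, Pfkfb4, Pdk1 and Pfkl, against 30.1% of all genes higher and 26% lower, or 56% called. The higher genes included Slc2a1, Hk2 and Slc16a1 and the secreted factors Vegfa, Adm and Mif. The 14 that did not pass the test were Slc2a6, Hk1, Hk3, Gpi1, Aldoa, Tpi1, Eno1, Slc16a3, Hif1a, Egln1, Egln3, Bnip3, Bnip3l and Ankrd37. Hif1a, Egln1 and Egln3 gave log2 changes of 0.13, -0.09 and -0.13, each an average of opposite signs in the genotypes. Hif1a was higher with nicotine in wild type and lower in α7nAChR-/- cells, and Egln1 and Egln3 were the reverse. The median log2 change was 0.76 over the 33 genes and 0.03 over all genes. In 27 of the 33 the sign was the same in both genotypes, and it was opposite in Bnip3, Egln1, Egln3, Eno1, Hif1a and Slc16a3. The 16 higher calls ranged from 14 to 19 when any 1 library was left out, while the 3 lower ones numbered 1 when the wild type vehicle library was left out and 8 with quantile scaling. This comparison and the preceding one use the same vehicle libraries, so their values are set side by side for each gene below and not counted together.

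Nicotine before LPS, set against LPS alone, raised 10 of the 33 genes and lowered 5, against 26.9% and 28.6% of all genes, or 55.6% called. Ndrg1, Bnip3l, Vegfa and Slc16a1 rose most, and Slc2a6, Pfkfb3 and Hk3 fell most, with smaller falls of Pfkp and Slc16a3. The sign was the same in both genotypes for 25 of the 33. It was opposite for Adm, Aldoa, Eno1, Ldha, P4ha1, Pdk1, Pfkfb4 and Pfkl. Such sign counts were not made over all genes, so those of the treatment comparisons have no baseline. The nicotine change differed with and without LPS for 16 of the 33 genes by the interaction term, which was below 0 for 12 and above 0 for 4, where 17.3% of all genes were below and 12.8% above, 30.1% together. The median interaction was -0.55 over the 33 genes on the log2 scale and -0.11 over all genes, and over the 33 it turned to 0.08 with quantile scaling and 0.05 with equal sums. With every library rescaled to the same sum, 7 were below 0 and 8 above, and quantile scaling also left 7 below. The lower calls of nicotine with LPS numbered 3 without the α7nAChR-/- LPS library and 2 without the α7nAChR-/- library with nicotine and LPS.

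**Figure D1:**
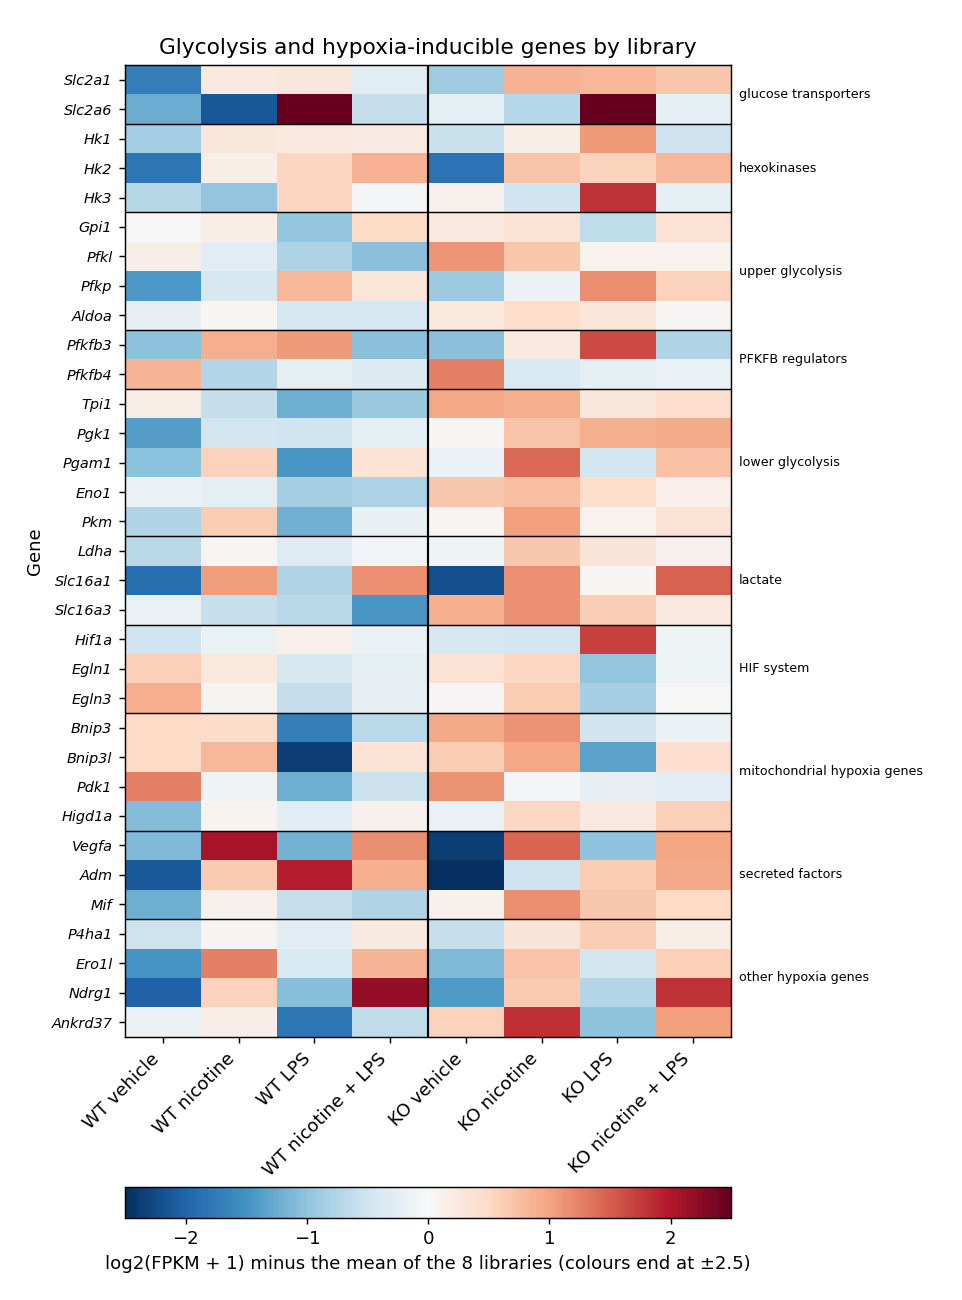
Levels of the 33 genes (vertical axis, grouped by role) in the 8 libraries (horizontal axis, 1 per group; WT, wild type; KO, α7nAChR-/-). Colour gives log2(FPKM + 1) minus the gene's mean over the 8 libraries; Slc2a6 is darkest in the 2 libraries with LPS alone, and the lower glycolysis genes are redder in the KO libraries.

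A pair of glucose transporters was among the 33 genes. Slc2a1, which encodes the widely expressed transporter GLUT1, stood at 20.8, 85.0, 87.5 and 59.2 FPKM in wild type libraries and 37.9, 130.3, 127 and 114 FPKM in α7nAChR-/- libraries, in the order vehicle, nicotine, LPS and nicotine with LPS used throughout. Its lowest value was the vehicle library in each genotype, and the 2 vehicle libraries did not overlap with the other 6. It rose with LPS alone (log2 change 1.87 ± 0.15, adjusted p = 0.00019) and with nicotine alone (1.87 ± 0.15, adjusted p = 0.00037). Under LPS, nicotine did not add to it (-0.35 ± 0.15, adjusted p = 0.084), and the interaction was -2.22 ± 0.21, adjusted p = 0.0038. Slc2a6, encoding GLUT6, a transporter known from myeloid cells, had another pattern. It stood at 23.0, 12.2, 320.2 and 36.5 FPKM in wild type libraries and 47.0, 33.9, 361 and 47.2 FPKM in α7nAChR-/- libraries, so both LPS libraries lay far above the other 6. It rose with LPS alone (3.33 ± 0.30, adjusted p = 0.00027) and nicotine before LPS lowered it (-3.004 ± 0.30, adjusted p = 0.00051), whereas nicotine alone gave -0.66 ± 0.30, adjusted p = 0.1.

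The 3 hexokinases all rose with LPS alone and then differed. Hk2, the inducible form, was at 9.76, 40.5, 54.0 and 68.1 FPKM in wild type libraries and 9.43, 60.6, 54.7 and 66.2 FPKM in α7nAChR-/- libraries. The vehicle libraries stood apart from the other 6, with log2 changes of 2.38 ± 0.19, adjusted p = 0.00019 for LPS alone and 2.26 ± 0.19, adjusted p = 0.0004 for nicotine alone, and nicotine under LPS changed little (0.30 ± 0.19, adjusted p = 0.21). Hk3, the form typical of myeloid cells, stood at 24.2, 19.8, 58.9 and 39.7 FPKM in wild type libraries and 43.7, 28.4, 143 and 34.1 FPKM in α7nAChR-/- libraries. LPS alone raised it (1.47 ± 0.32, adjusted p = 0.008), a call lost without the wild type vehicle library and with quantile scaling or equal sums (log2 change down to 0.54). Nicotine before LPS lowered it (-1.30 ± 0.32, adjusted p = 0.014), a call lost without either α7nAChR-/- library with LPS, with adjusted p of up to 0.083. Hk1, the constitutive form, stood at 17.1, 38.6, 37.9 and 36.6 FPKM in wild type libraries and 21.2, 35.3, 67.2 and 21.9 FPKM in α7nAChR-/- libraries. Its change with LPS alone was 1.36 ± 0.33, adjusted p = 0.012, lost without the wild type vehicle library or the α7nAChR-/- LPS library and with quantile scaling or equal sums. Its interaction with nicotine was -1.73 ± 0.47, adjusted p = 0.036, a call lost in 9 of 14 alternatives. As a share of summed hexokinase FPKM, Hk2 took 19.1%, 40.9%, 35.8% and 47.2% in wild type, and 12.7%, 48.8%, 20.7% and 54.2% in α7nAChR-/- libraries.

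**Figure D2:**
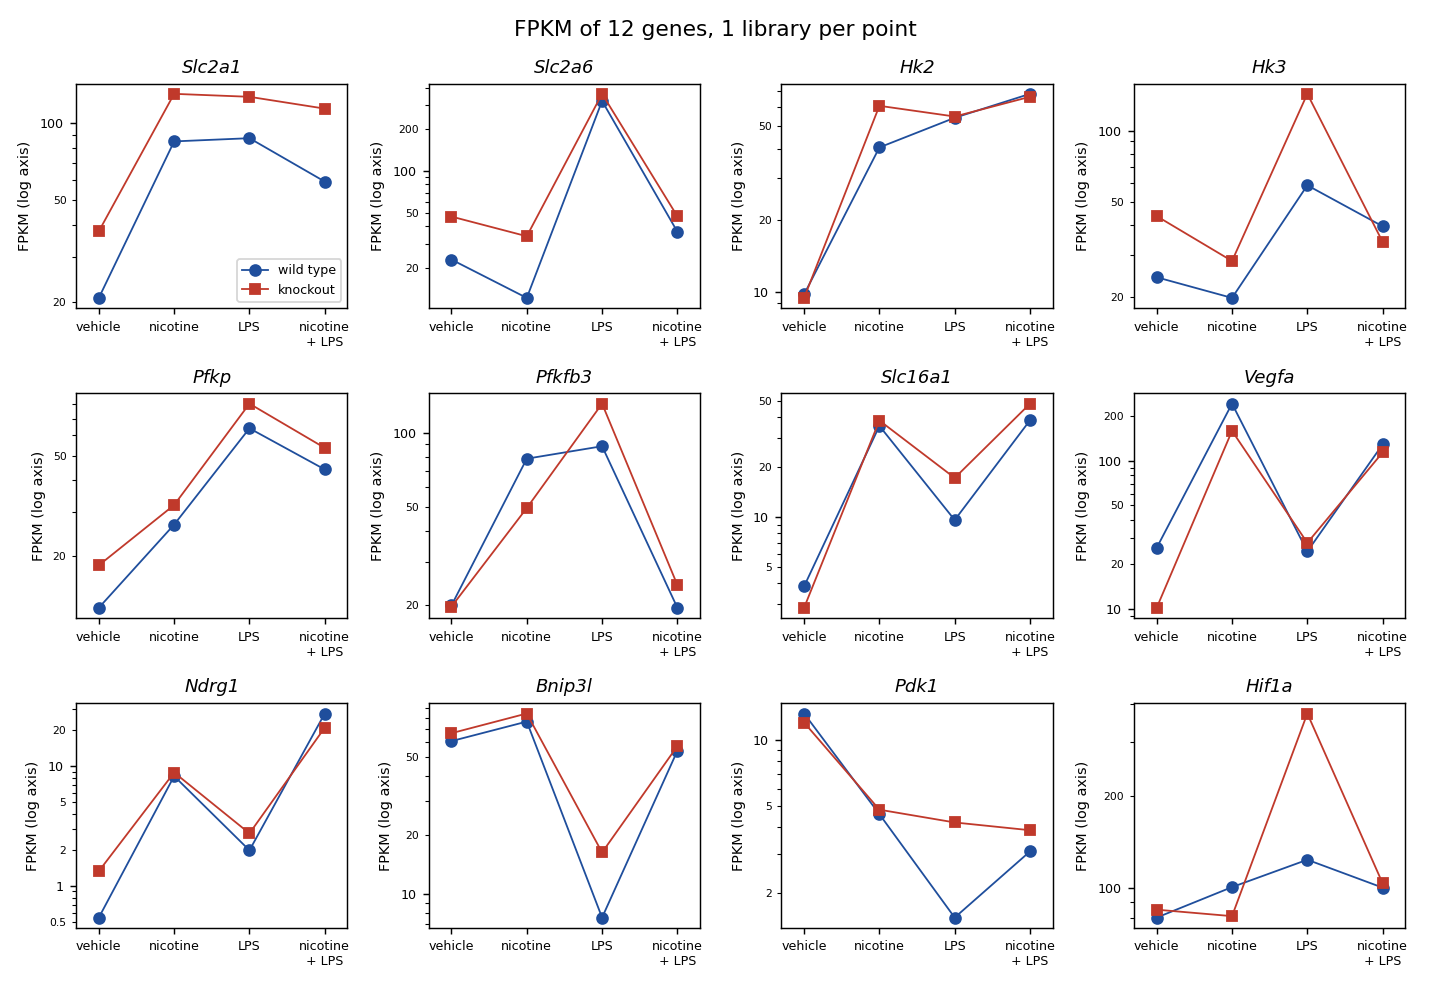
FPKM (log axis) of 12 genes under the 4 treatments (horizontal axis), 1 library per point, with circles for wild type and squares for α7nAChR-/- libraries; lines join libraries of a genotype. Slc2a6 peaks with LPS alone at 320.2 and 361 FPKM, and Vegfa is highest with nicotine alone at 243 and 159 FPKM.

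At the committed step the phosphofructokinase forms moved apart. Pfkp, the platelet form, stood at 12.5, 26.7, 64.1 and 44.0 FPKM in wild type libraries and 18.4, 31.9, 80.1 and 53.6 FPKM in α7nAChR-/- libraries. The LPS libraries were highest and the vehicle libraries lowest in each genotype, with changes of 2.16 ± 0.13, adjusted p = 9.8e-05 for LPS alone, 0.90 ± 0.13, adjusted p = 0.0022 for nicotine alone and -0.55 ± 0.13, adjusted p = 0.013 for nicotine before LPS. The last call was lost without either library with both agents and with quantile scaling or equal sums (down to -0.20, adjusted p = 0.27). Pfkl, the liver form, stood at 28.0, 20.5, 14.2 and 11.6 FPKM in wild type libraries and 54.7, 41.0, 26.6 and 26.6 FPKM in α7nAChR-/- libraries, with the vehicle library highest in each genotype. It fell with LPS alone (-0.97 ± 0.13, adjusted p = 0.0012) and with nicotine alone (-0.42 ± 0.13, adjusted p = 0.035), the latter not past the test when any of 6 libraries was left out. Pfkp made up 28.7%, 55.4%, 79.9% and 73.8% of summed phosphofructokinase FPKM in wild type. The shares in α7nAChR-/- libraries were 23.8%, 43.3%, 72.4% and 62.7% in the same order.

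Pfkfb3 and Pfkfb4 encode enzymes that make and remove fructose 2,6-bisphosphate, the activator of phosphofructokinase, and Pfkfb3 is the strongly kinase-biased form. Pfkfb3 stood at 19.9, 78.5, 88.2 and 19.5 FPKM in wild type libraries and 19.7, 49.5, 131 and 24.1 FPKM in α7nAChR-/- libraries. Either agent alone raised it (2.39 ± 0.28, adjusted p = 0.00068 for LPS and 1.61 ± 0.28, adjusted p = 0.0037 for nicotine), yet with both it was near the vehicle libraries, a fall against LPS alone of -2.26 ± 0.28, adjusted p = 0.001. Its interaction of -3.87 ± 0.40, adjusted p = 0.004 was the lowest of the 33 genes and passed the test in all 14 alternatives run. Pfkfb4 stood at 8.05, 2.02, 3.34 and 2.999 FPKM in wild type libraries and 11.1, 2.85, 3.25 and 3.48 FPKM in α7nAChR-/- libraries. It was highest with vehicle in each genotype and fell with LPS alone (-1.28 ± 0.16, adjusted p = 0.00094) and with nicotine alone (-1.62 ± 0.16, adjusted p = 0.00061).

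**Figure D3:**
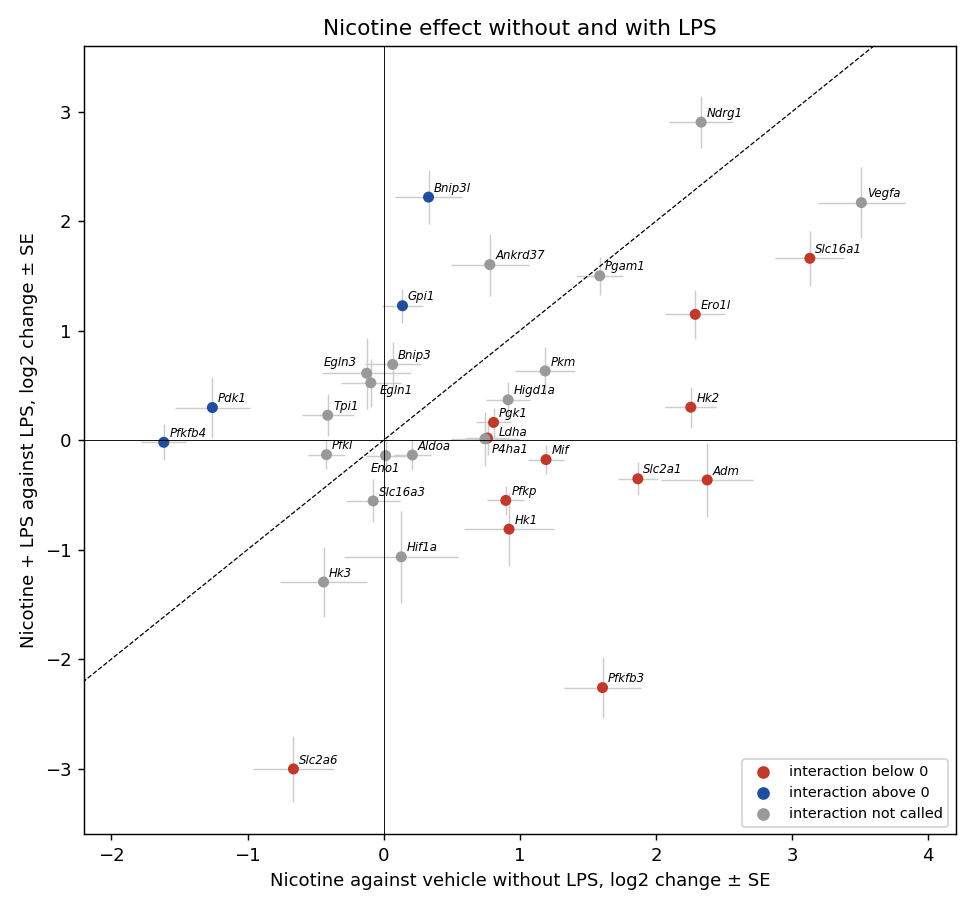
Log2 change with nicotine without LPS (horizontal axis) against that with LPS (vertical axis) for the 33 genes, with SE bars from the fit over 8 libraries; the dashed line marks equal change and colour the interaction call. Pfkfb3 lies lower right (1.61 and -2.26), and Ndrg1, Vegfa and Slc16a1 lie upper right.

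The other upper enzymes were glucose-6-phosphate isomerase and aldolase. Gpi1 was at 115, 129.7, 58.5 and 163 FPKM in wild type libraries and 137, 147, 74.6 and 149 FPKM in α7nAChR-/- libraries, lowest in the LPS library of each genotype. LPS alone lowered it (-0.91 ± 0.15, adjusted p = 0.0027) and nicotine before LPS raised it (1.23 ± 0.15, adjusted p = 0.0011). Aldoa, at 467, 556, 396 and 398 FPKM in wild type libraries and 651, 733, 669 and 551 FPKM in α7nAChR-/- libraries, passed the test in none of the 3 treatment comparisons.

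In lower glycolysis, Pgam1 and Pkm followed nicotine. Pgam1, phosphoglycerate mutase, stood at 58.7, 181, 43.3 and 153 FPKM in wild type libraries and 108, 323, 86.6 and 200.5 FPKM in α7nAChR-/- libraries, so that in each genotype the 2 libraries with nicotine lay above the 2 without. It rose with nicotine alone (1.59 ± 0.17, adjusted p = 0.00074) and with nicotine before LPS (1.501 ± 0.17, adjusted p = 0.00079). Pkm, pyruvate kinase, was at 304, 801, 223 and 452 FPKM in wild type libraries and 536, 1057, 552 and 656 FPKM in α7nAChR-/- libraries. It rose with nicotine alone (1.19 ± 0.22, adjusted p = 0.0049) and, less firmly, before LPS (0.63 ± 0.22, adjusted p = 0.049, a call lost when any of 7 libraries was left out). The files do not separate its M1 and M2 splice forms.

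Pgk1, phosphoglycerate kinase, stood at 80.9, 154, 151 and 181 FPKM in wild type libraries and 215, 349, 391 and 406 FPKM in α7nAChR-/- libraries, with every α7nAChR-/- library above every wild type library. It rose with nicotine alone (0.81 ± 0.13, adjusted p = 0.0028). Its change with LPS alone was 0.87 ± 0.13, adjusted p = 0.0017 as deposited but turned to -0.18 with quantile scaling and -0.0685 with equal sums. Tpi1, triose-phosphate isomerase, was at 91.8, 54.3, 35.3 and 43.5 FPKM in wild type libraries and 164, 156, 100.9 and 113 FPKM in α7nAChR-/- libraries and fell with LPS alone (-1.03 ± 0.19, adjusted p = 0.0041). Eno1, enolase, was at 254, 242, 159 and 163 FPKM in wild type libraries and 449, 479, 384 and 309 FPKM in α7nAChR-/- libraries, again without overlap between genotypes. Its change with LPS alone was -0.45 ± 0.15, adjusted p = 0.037, a call lost when any of 7 libraries was left out.

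For the fate of pyruvate, Ldha, the main lactate dehydrogenase subunit of these cells, was at 193, 323, 250.3 and 299 FPKM in wild type libraries and 289, 497, 392.2 and 337 FPKM in α7nAChR-/- libraries and rose with nicotine alone (0.76 ± 0.16, adjusted p = 0.007), a call lost without the α7nAChR-/- nicotine library or with quantile scaling. Slc16a1, encoding the lactate transporter MCT1, stood at 3.84, 35.5, 9.64 and 38.4 FPKM in wild type libraries and 2.86, 38.2, 17.3 and 48.3 FPKM in α7nAChR-/- libraries. The vehicle libraries were lowest and the 4 nicotine libraries highest, without overlap between libraries with and without nicotine. It rose with nicotine alone (3.13 ± 0.25, adjusted p = 0.00038), with nicotine before LPS (1.66 ± 0.25, adjusted p = 0.0022) and with LPS alone (1.69 ± 0.25, adjusted p = 0.0017). Slc16a3, encoding the export transporter MCT4, was at 10.8, 7.96, 7.22 and 3.88 FPKM in wild type libraries and 23.7, 28.3, 19.3 and 14.8 FPKM in α7nAChR-/- libraries. Its fall with nicotine before LPS (-0.56 ± 0.20, adjusted p = 0.0496) was lost with quantile scaling, median centring and equal sums and without any of 6 libraries. Slc16a1 rose from 17.4% to 74.6% of summed Slc16a1, Slc16a3 and Slc16a7 FPKM between wild type vehicle and nicotine, and from 9.05% to 55.8% in α7nAChR-/- libraries.

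**Figure D4:**
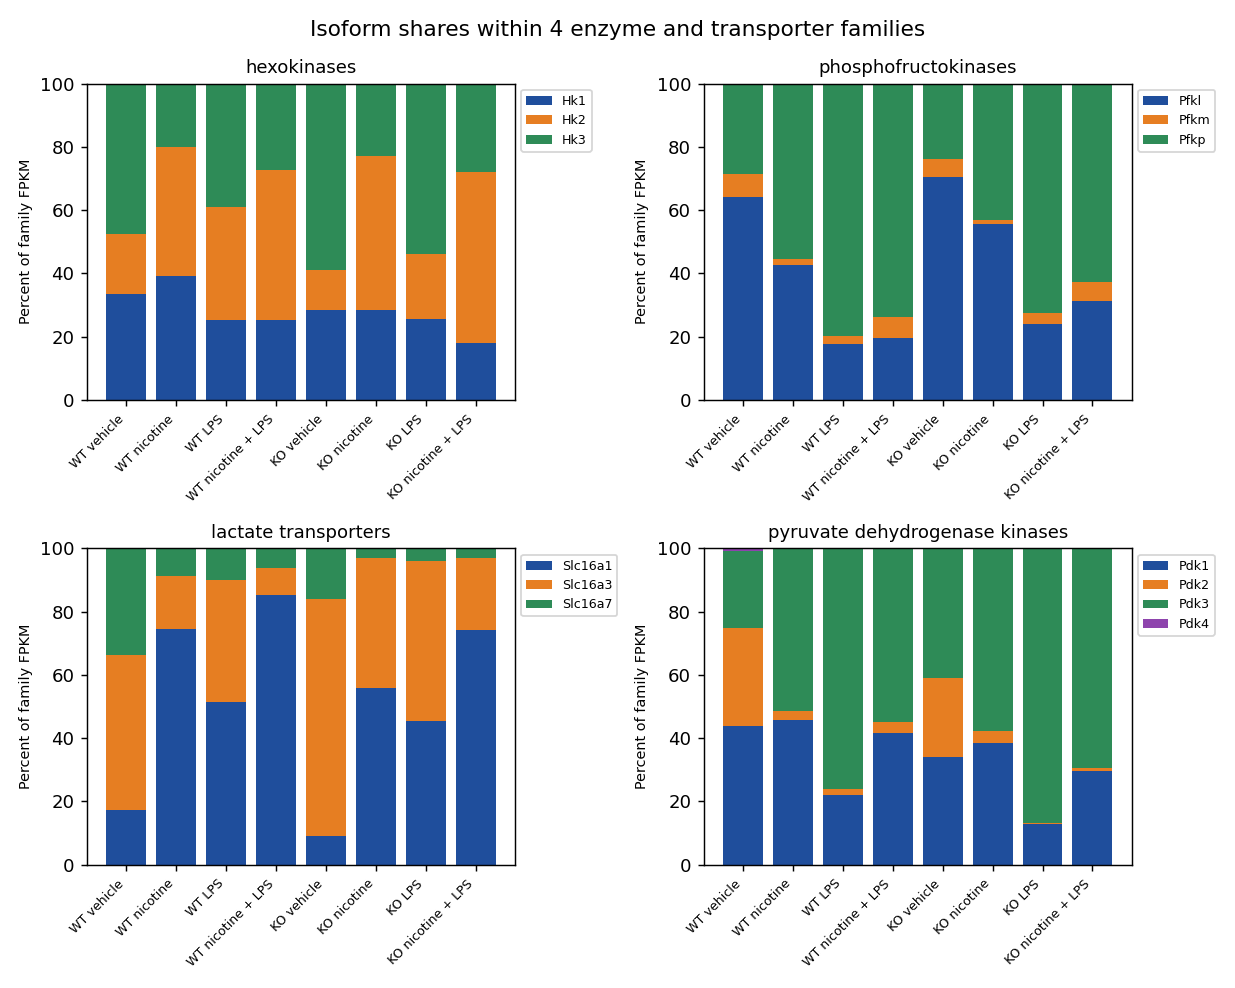
Percent of a family's summed FPKM taken by each isoform (vertical axis) in the 8 libraries (horizontal axis; WT, wild type; KO, α7nAChR-/-) for 4 families. Pfkp exceeds 60% in all 4 libraries with LPS, and Slc16a1 exceeds 55% in all 4 libraries with nicotine.

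Pdk1 and its relatives inhibit the pyruvate dehydrogenase complex, which converts pyruvate to acetyl-CoA in mitochondria. Pdk1 was at 13.2, 4.58, 1.54 and 3.10 FPKM in wild type libraries and 12.04, 4.81, 4.202 and 3.87 FPKM in α7nAChR-/- libraries, with the vehicle libraries standing above the other 6. It fell with LPS alone (-1.91 ± 0.28, adjusted p = 0.0015) and with nicotine alone (-1.26 ± 0.28, adjusted p = 0.0091), the latter not past the test without the wild type vehicle or the α7nAChR-/- nicotine library. Pdk2, which is not among the 33, stood at 9.49 and 8.95 FPKM with vehicle and at 0.093 to 0.481 FPKM in the other 6 libraries. Pdk1, Pdk2, Pdk3 and Pdk4 summed to 30.3, 10.0, 7.00 and 7.42 FPKM in wild type libraries. In α7nAChR-/- libraries the sums were 35.5, 12.5, 32.9 and 13.2 FPKM, so the LPS library was near vehicle. Pdk3 took 24.1% and 40.9% of the sum with vehicle and 51.3% to 87.0% in the other 6 libraries.

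Hif1a, encoding HIF-1α, was at 80.1, 100.7, 124 and 100.3 FPKM in wild type libraries and 85.0, 81.0, 371 and 104 FPKM in α7nAChR-/- libraries. The α7nAChR-/- LPS library stood far above the other 7, which lay between 80.1 and 124 FPKM. The change with LPS alone was 1.37 ± 0.42, adjusted p = 0.029, and it did not pass the test without either vehicle library, without the filter on low values, with quantile scaling or with equal sums. Transcript levels do not report on HIF-1α protein, whose stability the prolyl hydroxylases set. Egln1, the main such hydroxylase in most cells, was at 13.2, 10.2, 6.07 and 6.98 FPKM in wild type libraries and 11.01, 12.3, 3.69 and 7.58 FPKM in α7nAChR-/- libraries and fell with LPS alone (-1.18 ± 0.22, adjusted p = 0.0041). Egln3, a hydroxylase gene that is itself a HIF target, was at 7.61, 3.80, 2.04 and 2.99 FPKM in wild type libraries and 3.72, 6.12, 1.59 and 3.599 FPKM in α7nAChR-/- libraries. It also fell with LPS alone (-1.18 ± 0.33, adjusted p = 0.019). That call was lost without the wild type vehicle library or either LPS library, without the filter on low values and with quantile scaling.

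Among HIF targets of the mitochondrion, Bnip3 and Bnip3l encode receptors that mark mitochondria for removal. Bnip3l was at 60.7, 76.4, 7.56 and 54.1 FPKM in wild type libraries and 66.6, 84.0, 16.3 and 57.2 FPKM in α7nAChR-/- libraries. The LPS libraries lay far below the other 6, a fall of -2.41 ± 0.25, adjusted p = 0.00043, and with nicotine before LPS the level was near that of the vehicle libraries, a rise against LPS alone of 2.22 ± 0.25, adjusted p = 0.00072. Bnip3 was at 13.3, 12.97, 2.10 and 5.32 FPKM in wild type libraries and 18.6, 21.0, 6.14 and 8.12 FPKM in α7nAChR-/- libraries. It fell with LPS alone (-1.83 ± 0.21, adjusted p = 0.00059), while its rise with nicotine before LPS (0.69 ± 0.21, adjusted p = 0.028) was lost when any of 4 libraries was left out. Higd1a, which encodes a protein of the inner membrane linked to the respiratory chain, was at 5.88, 14.3, 10.99 and 14.6 FPKM in wild type libraries and 11.9, 19.7, 16.2 and 21.0 FPKM in α7nAChR-/- libraries and rose with nicotine alone (0.91 ± 0.16, adjusted p = 0.004). Its change with LPS alone was 0.61 ± 0.16, adjusted p = 0.017 as deposited and -0.26 with equal sums.

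Of the secreted factors, Vegfa, the main angiogenic growth factor, stood at 25.9, 243, 24.5 and 129 FPKM in wild type libraries and 10.2, 159, 28.0 and 114 FPKM in α7nAChR-/- libraries. In each genotype the 2 libraries with nicotine were above the 2 without, by 3.51 ± 0.32, adjusted p = 0.00048 without LPS and 2.17 ± 0.32, adjusted p = 0.002 with LPS, whereas LPS alone gave 0.65 ± 0.32, adjusted p = 0.13. Adm was at 1.71, 17.5, 44.4 and 20.9 FPKM in wild type libraries and 1.08, 7.21, 17.1 and 21.6 FPKM in α7nAChR-/- libraries, lowest with vehicle in each genotype. It rose with LPS alone (3.59 ± 0.34, adjusted p = 0.00031) and nicotine alone (2.38 ± 0.34, adjusted p = 0.0018), and the interaction was -2.74 ± 0.48, adjusted p = 0.01. Mif, encoding the cytokine macrophage migration inhibitory factor, stood at 51.7, 132, 81.6 and 72.4 FPKM in wild type libraries and 133, 276, 197 and 173 FPKM in α7nAChR-/- libraries. It rose with nicotine alone (1.19 ± 0.13, adjusted p = 0.00076), while its change with LPS alone was 0.61 ± 0.13, adjusted p = 0.0073 as deposited, -0.34 with quantile scaling and -0.33 with equal sums.

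Of the 4 remaining hypoxia-inducible genes, Ndrg1 and Ero1l rose with nicotine both without and with LPS. Ndrg1, a stress-responsive gene long used as a hypoxia marker, was at 0.545, 8.26, 1.98 and 27.5 FPKM in wild type libraries and 1.33, 8.85, 2.75 and 21.0 FPKM in α7nAChR-/- libraries. It was highest with both agents in each genotype, with changes of 2.33 ± 0.24, adjusted p = 0.00061 for nicotine alone and 2.90 ± 0.24, adjusted p = 0.00031 for nicotine before LPS. Ero1l, an oxidase that forms disulfide bonds in the endoplasmic reticulum, was at 9.86, 72.1, 22.4 and 54.0 FPKM in wild type libraries and 13.1, 49.0, 21.0 and 44.9 FPKM in α7nAChR-/- libraries. The 4 libraries with nicotine lay above the 4 without, by 2.29 ± 0.22, adjusted p = 0.00055 without LPS and 1.15 ± 0.22, adjusted p = 0.0053 with LPS, the latter at an adjusted p of 0.0504 without the wild type library with both agents. Its change with LPS alone was 0.87 ± 0.22, adjusted p = 0.014 as deposited and -0.0159 with equal sums. Ankrd37, an ankyrin repeat gene known as a HIF-1 target, stood at 2.56, 3.43, 0.139 and 1.56 FPKM in wild type libraries and 4.91, 13, 0.977 and 7.11 FPKM in α7nAChR-/- libraries. It fell with LPS alone (-1.61 ± 0.28, adjusted p = 0.0032) and rose with nicotine before LPS (1.60 ± 0.28, adjusted p = 0.0038). Nicotine alone gave 0.78 ± 0.28, adjusted p = 0.054. P4ha1, a collagen prolyl hydroxylase subunit, was at 20.2, 30.8, 24.2 and 34.8 FPKM in wild type libraries and 19.3, 36.9, 45.6 and 32.5 FPKM in α7nAChR-/- libraries. Its changes of 0.73 ± 0.25, adjusted p = 0.043 with LPS alone and 0.74 ± 0.25, adjusted p = 0.041 with nicotine alone were each lost when any of 6 or more libraries was left out, and the LPS change was -0.19 with equal sums. Nicotine before LPS gave 0.01 ± 0.25, adjusted p = 0.97.

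Markers of other cells moved with the treatments. Summed FPKM of 7 mast cell markers was 209.8, 417, 453 and 806 in wild type and 159, 318, 391 and 629.6 in α7nAChR-/- libraries in the order above. For 5 dendritic cell markers the sums were 8.51, 35.0, 39.3 and 74.9, then 15.4, 38.2, 67.2 and 124.0, most of it Ccr7. Xcr1, of the same list, was at 0.072, 2.485, 1.139 and 27.3 FPKM in wild type and 0.14, 1.966, 1.305 and 18.4 FPKM in α7nAChR-/- libraries. Flt3 stayed at 0.114 to 1.385, Zbtb46 at 0.949 to 3.105 and Clec9a at 0 to 0.697 FPKM. Of the mast cell sums with LPS alone, Hdc gave 171 FPKM in wild type and 184 FPKM in α7nAChR-/- cells, against 2.64 and 1.66 FPKM with vehicle. Their part in these results was not tested. The 7 B cell markers summed to 190.4 to 403 FPKM and the 5 listed T cell markers to 12.9 to 48.0 FPKM. The 6 mesothelial and fibroblast markers stayed at 0.194 to 5.91 FPKM in sum.

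Other genes of the same pathways were listed by function. Of all genes, 32.7% rose and 26.4% fell with LPS alone, 30.1% and 26% with nicotine alone, and 26.9% and 28.6% with nicotine before LPS. Those shares are the background for the counts here and in the next paragraph, and several counts lie near them. Of 16 other glycolysis genes tested, none rose and 8 fell with LPS alone, none rose and 7 fell with nicotine alone, and 4 rose and none fell with nicotine before LPS in limma's test. Each of these 0 counts was 1 at an unadjusted p under 0.05. Pdk2 (-3.19), Bpgm (-1.84) and Pfkfb2 (-1.83) had the largest log2 changes with LPS alone, Bpgm being the enzyme of 2,3-bisphosphoglycerate synthesis. Of 13 HIF regulators, 9 rose and 1 fell with LPS alone, 9 rose and none fell with nicotine alone (none by unadjusted p), and 3 rose and 1 fell with nicotine before LPS. Siah2, a ubiquitin ligase that acts on prolyl hydroxylases, was at 4.76, 40.6, 13.8 and 61.2 FPKM in wild type libraries and 5.25, 44.7, 13.2 and 67.6 FPKM in α7nAChR-/- libraries. The 4 libraries with nicotine stood above the 4 without, with log2 changes of 2.86 ± 0.13, adjusted p = 0.00024 without LPS and 2.17 ± 0.13, adjusted p = 0.00018 with LPS. Epas1, which encodes HIF-2α, fell with LPS alone (-1.36 ± 0.22, adjusted p = 0.0024) and rose with nicotine with or without LPS (2.38 and 1.11).

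Of 19 other hypoxia-inducible genes, 8 rose and 5 fell with LPS alone, 10 rose and 1 fell with nicotine alone, and 9 rose and 4 fell with nicotine before LPS. Hilpda, a lipid droplet gene, was at 8.88, 101.2, 62.0 and 102 FPKM in wild type libraries and 9.04, 148, 135 and 133 FPKM in α7nAChR-/- libraries, lowest with vehicle in each genotype. Kdm3a, a histone demethylase, and Rora, a nuclear receptor, rose with nicotine alone (2.37 and 2.57) and before LPS (2.95 and 4.09). Of 8 pentose phosphate genes, 1 rose and 3 fell with LPS alone, 2 rose and 4 fell with nicotine alone, and none rose (none by unadjusted p) and 3 fell with nicotine before LPS. G6pdx, the entry enzyme of that pathway, was at 61.0, 24.0, 51.2 and 20.5 FPKM in wild type libraries and 90.2, 33.8, 73.5 and 31.1 FPKM in α7nAChR-/- libraries. The 4 libraries with nicotine lay below the 4 without, with log2 changes of -1.35 without LPS and -1.25 with LPS.

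Averaged over the 4 treatments, 14 of the 33 genes were higher in α7nAChR-/- than in wild type libraries and none was lower, against 4.76% and 2.88% of all genes, 7.64% together. At an unadjusted p under 0.05, limma gave 17 higher and 1 lower. All 5 lower glycolysis genes were among them (Tpi1, Pgk1, Pgam1, Eno1 and Pkm), with Slc2a1, Pfkl, Aldoa, Ldha and Slc16a3 from the rest of the pathway and Mif, Ankrd37, Bnip3 and Higd1a from the hypoxia genes. The largest log2 differences were those of Slc16a3 (1.44 ± 0.14, adjusted p = 0.0038), Tpi1 (1.30 ± 0.14, adjusted p = 0.0051), Pgk1 (1.28 ± 0.09, adjusted p = 0.0019) and Mif (1.23 ± 0.09, adjusted p = 0.0021). The median was 0.35 over the 33 genes and -0.01 over all genes. In all 4 matched pairs of libraries 17 of the 33 were higher in α7nAChR-/- cells (51.5%) and none was lower, against 18.0% and 17.5% of all genes.

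Pgk1 differed by 2.23 to 2.64-fold in the 4 pairs, Mif by 2.08 to 2.53-fold, Slc16a3 by 2.09 to 3.27-fold and Pfkl by 1.81 to 2.19-fold, on the scale of FPKM + 1. Each of the 4 was higher in 4 of 4 pairs. The hexokinase Hk2 (0.13 ± 0.13, adjusted p = 0.59) and the phosphofructokinase regulator Pfkfb3 (0.05 ± 0.20, adjusted p = 0.9) did not pass the test. Nor did the secreted factors Vegfa (-0.47 ± 0.23, adjusted p = 0.25) and Adm (-0.71 ± 0.24, adjusted p = 0.13). Calls for Slc16a3, Tpi1, Pgk1, Eno1 and Pfkl held in all 15 alternatives run. The other 9 were lost in at least 1, and the count was 6 or 7 without either vehicle library, either nicotine library or either library with both agents, 7 without the filter on low values, and 5 with an additive model.

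**Figure D5:**
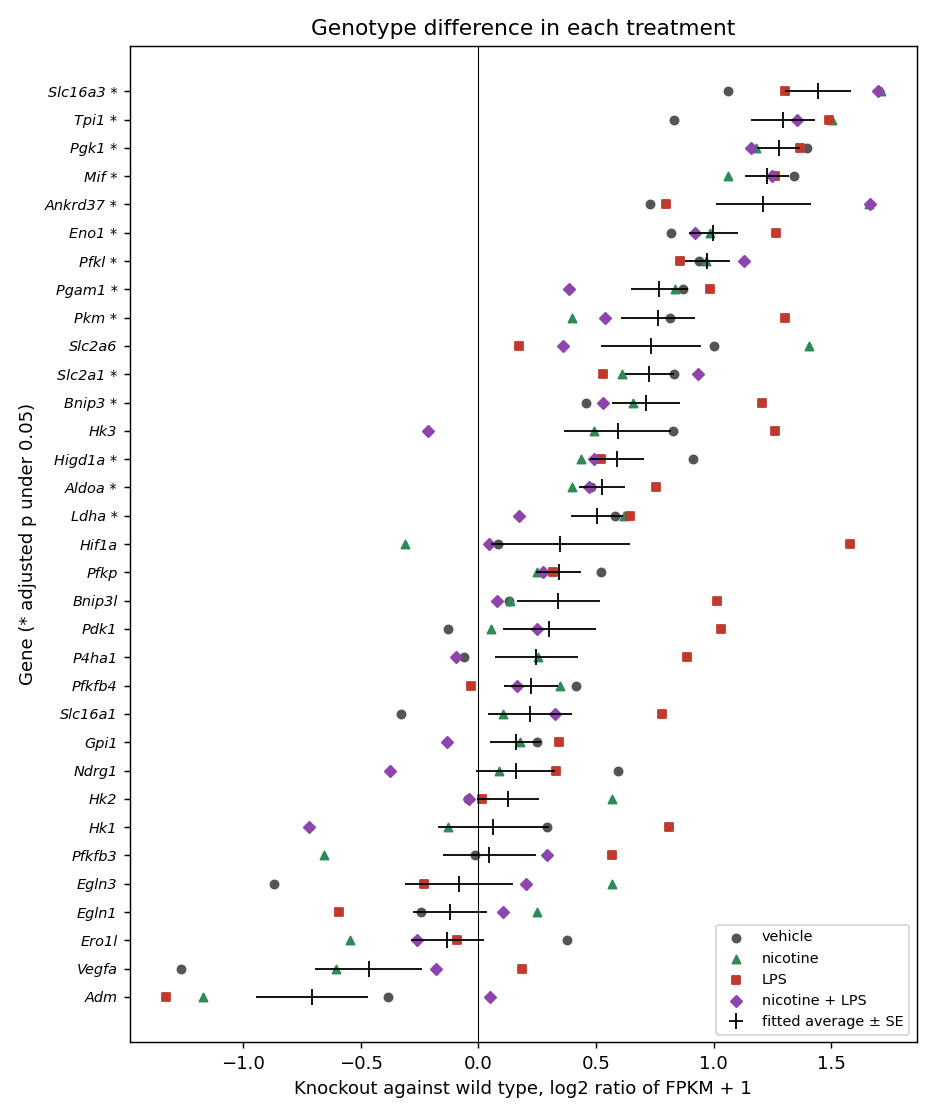
Log2 ratio of FPKM + 1, α7nAChR-/- (knockout) over wild type, for the 33 genes (vertical axis) in each of the 4 treatments (points) and as the fitted average with SE (black). Stars mark the 14 genes with an adjusted p under 0.05, all to the right of 0; Hif1a is set apart by its LPS pair.

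Other measures moved with genotype beside these genes. Of the 14, 8 had at least 1 other annotated gene matching their transcript at 90% identity or more over at least 300 bases (Aldoa, Bnip3, Eno1, Mif, Pgam1, Pgk1, Pkm and Tpi1), as did 1 of the other 19, so how fragments were split between copies is uncertain for them. Slc16a3, Pfkl, Slc2a1, Ankrd37, Higd1a and Ldha had no such copy. The 14 genes lie on 9 chromosomes, 3 of them on chromosome 7, which also holds Chrna7. ACGTG was in a promoter of 11 of the 14 and of 11 of the 17 others with a sequence. Summed FPKM of 6 listed neutrophil markers was 49.8, 34.4, 119.8 and 57.2 in wild type and 121, 69.1, 182 and 98.6 in α7nAChR-/- libraries, mostly S100a8. Of the 3 tested, 2 were higher by genotype and 1, Mmp8, was not called. Mmp8 was at 15.7, 11.6, 7.12 and 11.2 FPKM in wild type and 13.5, 8.59, 8.11 and 9.82 FPKM in α7nAChR-/- libraries. Cxcr2 was at 0 in 7 of the 8 libraries and at 0.023 FPKM in the other. Of 7 mast cell markers tested, 3 were lower by genotype, and 1 of 3 dendritic cell and 1 of 5 T cell markers were higher. None of these 3 lists had a call the other way, also by unadjusted p, and none of 7 B cell markers was called. The shares over all genes were 4.76% higher and 2.88% lower. The part of these markers, and of the differences in Vsig4 and Gata6 (lower) and Timd4 (higher), was not tested.

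Of the same pathways outside the 33, 2 of 16 other glycolysis genes were higher in α7nAChR-/- libraries (Aldoc and Pgm2) and Ldhb was lower. The shares over all genes were 4.76% higher and 2.88% lower. Of 13 HIF regulators 1 was higher and 1 lower. Epas1 was the lower one (-1.41 ± 0.16, adjusted p = 0.0061), at 11.02, 27.2, 2.78 and 20.7 FPKM in wild type libraries and 2.998, 6.96, 0.928 and 8.14 FPKM in α7nAChR-/- libraries. None of 19 other hypoxia-inducible genes passed limma's test in either direction, although 8 were higher and 3 lower at an unadjusted p under 0.05. Of 8 pentose phosphate genes, 2 were higher (G6pdx and Rpe).

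Whether nicotine acted differently in the 2 genotypes is the question the knockout addresses. For the nicotine by genotype term, none of the 33 genes and 0% of all genes passed at an adjusted p of 0.05. At an unadjusted p under 0.05 there were 7 of the 33 and 451 of all genes, or 4.32%. The 7 were Ankrd37, Egln1, Egln3 and Slc16a3, with a nicotine change above that of wild type in α7nAChR-/- cells, and Hk1, Hk3 and Pkm, with one below it, each at an adjusted p of 0.94. The fit of this term had 2 residual degrees of freedom, and missing the threshold does not show that the genotypes responded alike. With nicotine alone, Vegfa rose 9.07-fold in wild type and 14.3-fold in α7nAChR-/- cells, Slc16a1 7.54-fold and 10.2-fold, Slc2a1 3.94-fold and 3.38-fold, and Pgam1 3.04-fold and 2.97-fold on the FPKM + 1 scale. Under LPS, nicotine took Slc2a6 down 8.57-fold and 7.51-fold and Pfkfb3 down 4.36-fold and 5.27-fold in the same order. Among the 7, Ankrd37 stood 1.24-fold and 2.37-fold above vehicle with nicotine alone, and Egln3 was 1.79-fold lower in wild type and 1.51-fold higher in α7nAChR-/- cells. Under LPS, Hk1 was 1.04-fold and 2.98-fold lower and Hk3 1.47-fold and 4.09-fold lower with nicotine. Each of these ratios rests on a pair of libraries and has no replicate check.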

How the data were processed

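The list of 33 genes uses no measured value in its rule, but the 33 genes, the other gene lists, the marker lists, the models and the alternatives were chosen with earlier results of these data known. Per the labels' protocols, poly(A) RNA was sequenced from TruSeq RNA Sample Prep Kit v2 libraries, which do not mark strand. The table deposited by the authors holds 1 FPKM value per gene and library. Named in the submitters' processing notes, without role, are Cuffdiff, Cufflinks, HISAT2, CASAVA 1.8 and mm10. Which annotation was used, and how libraries were scaled, is not given in the sources used here. The table's 24341 lines gave 24339 genes, and 7761 of these had no value above 0.

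Depth is not given in counts. Of low genes, 20.5% to 26.6% per library shared the commonest ratio of values to the wild type vehicle library, so whole reads could not be recovered and no count test was run. No interval for counting error is given.

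Groups were taken from titles and characteristics, and all 8 libraries were used. The 10447 genes averaging 1 FPKM or more were fitted as log2(FPKM + 1) with limma 3.58.1 in R 4.3.3, with a trend on expression and Benjamini-Hochberg adjustment over all of them at 0.05. A fold on this scale understates the change of low genes. The model had terms for genotype, LPS, nicotine and LPS by nicotine and 3 residual degrees of freedom, so its spread came from interactions with genotype that were left out. The nicotine by genotype term was added in a fit with 2 residual degrees of freedom. All 33 genes are named, and from each other list genes among the 3 largest changes past the test. Ldhb, G6pdx and Rpe were added by their place in a count, and Pdk3 by its share of a family. A gene of these other lists is not reported here.

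Before use, the fitting code was tested on simulated data with known changes. Alternatives were a pseudocount of 0.1, no filter, quantile scaling, median centring, equal sums of FPKM, each library left out, all pairwise interactions and, for genotype, an additive model. Transcripts (GENCODE release M21 on GRCm38) were compared with minimap2 2.31-r1302. Tables and figures used Python 3.11.15, pandas 2.3.3, NumPy 2.4.6 and Matplotlib 3.10.9.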

Additional observations from a re-analysis of the deposited data

How the results depend on the processing

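Each group had 1 library, and the labels give no replicate numbers that pair libraries. Genotypes were therefore compared within matched treatments, through the LPS, nicotine and interaction terms. Treatments were compared within genotype, through the genotype term. Of the calls among the 33 genes, 16 of 27 for LPS without nicotine, 15 of 19 for nicotine without LPS, 9 of 15 for nicotine with LPS, 7 of 16 for the interaction and 5 of 14 for genotype passed in every alternative run. With quantile scaling, LPS alone gave 8 higher genes, nicotine alone 8 lower, nicotine with LPS 3 lower and the interaction 7 below 0. With equal sums of FPKM these were 7, 5, 3 and 7, and 8 interactions were above 0. Equal sums moved the median of all genes from 0.08 to -0.73 for LPS alone, from 0.03 to -0.23 for nicotine alone, from -0.03 to 0.26 for nicotine with LPS and from -0.11 to 0.46 for the interaction. The share of all calls that were higher went from 55.4% to 16.2%, from 53.7% to 36.8%, from 48.5% to 67.6% and from 42.4% to 85.1% (45.2% for LPS alone and 55.4% for the interaction with quantile scaling). Without the filter on low values the interaction was below 0 for 7 genes and genotype gave 7 higher genes and 271 calls over all genes, against 798 as reported. The additive model gave 5 and 115.

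Signs turned for LPS alone with quantile scaling in Pgk1 (-0.18) and Mif (-0.34), and with equal sums in Pgk1 (-0.0685), P4ha1 (-0.19), Ero1l (-0.0159), Higd1a (-0.26) and Mif (-0.33). For the interaction they turned in Pgk1 (0.0884) and Ldha (0.0776) with quantile scaling and in Pgk1 (0.0111) with equal sums. The cause was not tested. With 1 library left out, LPS alone gave 9 to 16 higher and 9 to 11 lower of the 33 genes and 4184 to 5974 calls over all genes. Nicotine alone gave 14 to 19, 1 to 3 and 3793 to 6461, and nicotine with LPS 7 to 11, 2 to 6 and 3700 to 5564. The interaction gave 1 to 5 above 0, 6 to 15 below and 1035 to 3706, with the fewest calls without the wild type library with both agents. Genotype gave 6 to 14 higher, 0 to 0 lower and 155 to 1120, with the fewest without either library with both agents. Nicotine by genotype gave 0 to 0 in each direction and 0 to 2.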

Other observations

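LPS after nicotine was also set against nicotine, which shares no library with LPS against vehicle. For each gene, the gap between these log2 ratios, averaged over genotypes, is the LPS by nicotine interaction given above. It is therefore not a separate result. The median log2 ratio over the 33 genes was -0.27 in wild type and -0.41 in α7nAChR-/- cells after nicotine, on the FPKM + 1 scale, against 0.25 and 0.44 without it. Over all 10447 genes tested these medians were -0.0032, -0.02, 0.07 and 0.09. All these ratios use the values as deposited. With quantile scaling the fitted median of the 33 genes was -0.34 for LPS alone and 0.08 for the interaction. With equal sums it was -0.33 and 0.05, so the difference in sign between the medians depended on scaling. Pfkfb3 was 3.88-fold and 2.01-fold lower and Bnip3 2.21-fold and 2.41-fold lower after nicotine, while Ndrg1 was 3.08-fold and 2.23-fold higher. Adm was 1.18-fold and 2.76-fold higher. Slc2a6, the transporter gene with the highest LPS response of the 2 listed, was 2.85-fold higher in wild type and 1.38-fold higher in α7nAChR-/- cells after nicotine. Without nicotine its ratios were 13.4-fold and 7.54-fold. Each ratio rests on 1 pair of libraries and has no test.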
